A study of Mus musculus with 12 samples.

Results

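The genes described here make, move, sense and break down prostaglandins. They are Slco2a1 for transport, Ptgs1, Ptgs2, Ptges and Ptgis for synthesis, Ptger2, Ptger3, Ptger4 and Ptgfr for sensing, and Hpgd for breakdown. The list was set by pathway, with earlier results of these data known. Slco2a1 was moreover chosen by a measured value, its high level in Dlk1- Sca1+ fibroblasts on these same arrays. The platform annotation named a probe set for 9 of the 10 genes, out of 17097 genes measured, and Ptgs1 was not analysed here.

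Dermal fibroblasts were sorted from the skin of 3 newborn female mouse littermates aged 2 days, and each of 4 populations was hybridised on 1 Affymetrix array per animal. All sorted cells were negative for CD45, CD117, CD31 and EpCam, which mark blood, mast, endothelial and epithelial cells, and carried Pdgfra and CD34. CD26+ papillary cells lacked Dlk1 and Sca1 at their surface. Dlk1- Sca1+ cells and Dlk1+ Sca1+ cells lacked CD26, and the labels call both pre-adipogenic. Dlk1+ reticular cells lacked CD26 and Sca1. The mice carried no stated mutation or treatment, and the names of the populations rest on these surface proteins. RNA came from 4500 cells per sample and was amplified over 21 cycles. Each array stands for 1 population of 1 animal, so n = 3 in every population, and this number limits the precision. The 8 measured fibroblast markers averaged 10.70 to 10.98 on the 12 arrays, on the log2 scale of the deposited RMA values, where the median of all probe sets was 6.26. Of the genes of the sorted proteins, Dpp4 (CD26) averaged 10.61 in papillary cells, against 6.37, 6.26 and 6.30 in Dlk1- Sca1+, Dlk1+ Sca1+ and reticular cells, and Dlk1 averaged 9.97, 11.39, 12.86 and 12.97 in the same 4 populations, so its RNA was also well measured in cells sorted as Dlk1-. Ly6a, the gene of Sca1, was not among the genes measured, so its RNA could not be set beside the sort. In such bulk samples, fewer cells that express a gene and less of its RNA per cell cannot be told apart.

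Prostaglandins are short-lived lipids made from arachidonate by the cyclooxygenases Ptgs1 and Ptgs2, whose product is turned into prostaglandin E2 by Ptges or into prostacyclin by Ptgis. They leave the cell, act on G protein coupled receptors nearby, and are taken up by the transporter Slco2a1 to be inactivated in the cytoplasm by Hpgd. Of the receptors for prostaglandin E2, Ptger2 and Ptger4 raise cyclic AMP and Ptger3 lowers it, whereas Ptgfr binds prostaglandin F2 alpha and acts through calcium. In skin, prostaglandins take part in inflammation, blood flow, hair growth and the restraint of fat cell formation.

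The papillary cells had the lowest mean level of 8 of the 9 genes, and the exception was Ptgis, which was lowest in Dlk1- Sca1+ cells. The highest mean lay in Dlk1+ Sca1+ cells for 5 genes (Ptgs2, Ptger2, Ptger4, Ptgfr and Hpgd), in Dlk1- Sca1+ cells for 3 (Slco2a1, Ptges and Ptger3) and in reticular cells for 1 (Ptgis). The place of Slco2a1 in this count followed from its choice. The genes other than Slco2a1 were tested in every comparison with limma, with Benjamini-Hochberg adjustment over all genes and a call at an adjusted p under 0.05. Slco2a1 was tested only where Dlk1- Sca1+ cells were not involved. All 8 of these other genes differed among the 4 populations in the moderated F-test, as did 35.7% of all genes, and 7 did when animal 2 or animal 3 was left out.

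**Figure D1:**
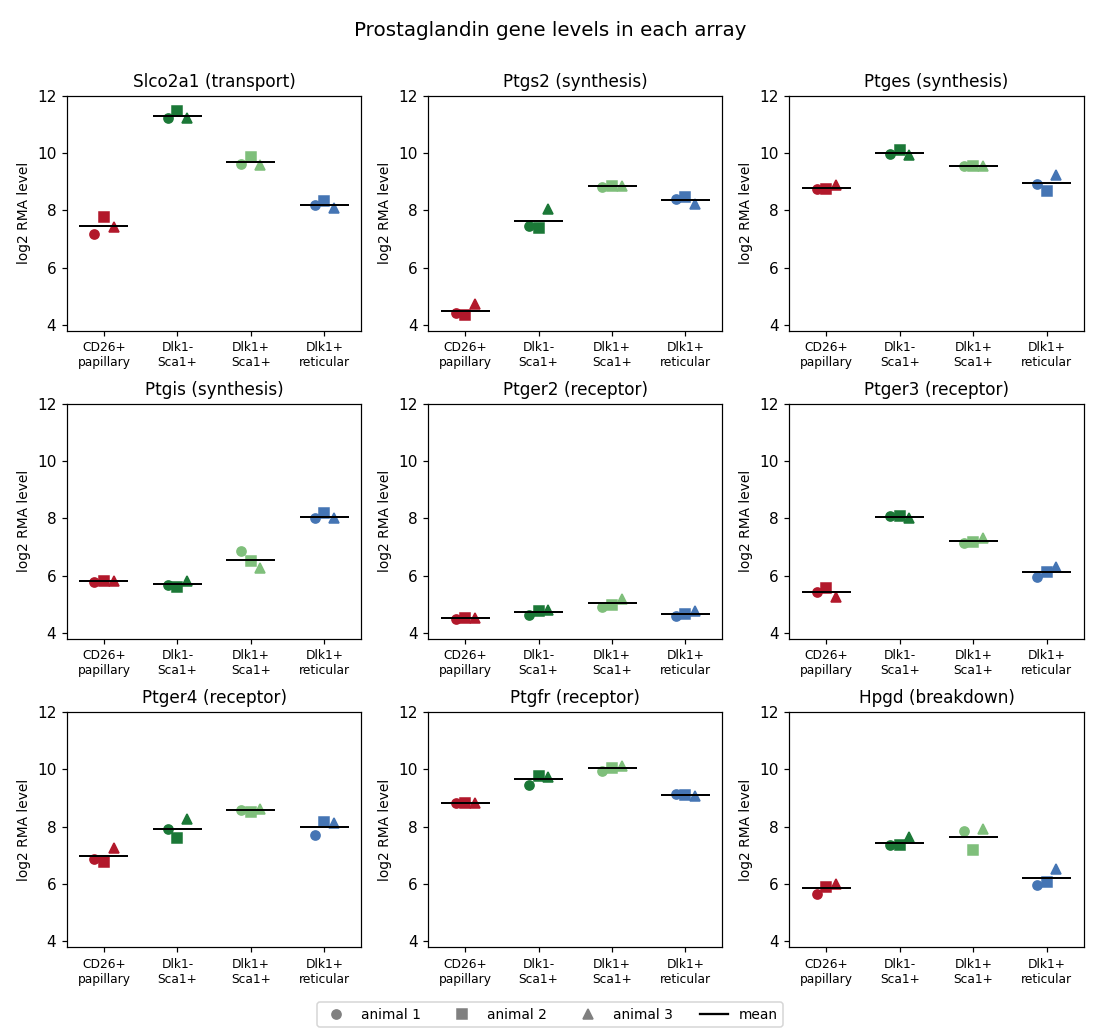
Level of each prostaglandin gene on each of the 12 arrays, as the log2 RMA value of its brightest probe set, with a symbol for each animal and a line at the mean of 3. Papillary cells lie lowest for 8 of the 9 genes, and Ptgis is the gene with its highest values, 8.00 to 8.19, in reticular cells.

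Against Dlk1- Sca1+ cells, papillary cells were lower for 6 of 8 genes and higher for 0, while 26.4% of all genes were called, 13.3% lower and 13.1% higher. Against Dlk1+ Sca1+ cells, papillary cells were lower for 9 of 9 genes, with 28% of all genes called, 13.9% lower and 14.1% higher. Against reticular cells, papillary cells were lower for 6 of 9 genes and higher for 0, with 27.5% of all genes called, 13.6% lower and 13.9% higher. Over the genes counted, the median log2 difference was -1.08, -1.60 and -0.71 in these 3 comparisons, and that of all genes lay between -0.01 and 0. The 3 comparisons share the papillary arrays, and the list was made with earlier results of these data known.

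Among the other populations the genes moved both ways. Dlk1- Sca1+ cells were higher than reticular cells for Ptges, Ptger3, Ptgfr and Hpgd, 4 of 8 genes, and lower for Ptgs2 and Ptgis. Of all genes 18.2% were called there, 9.36% higher and 8.8% lower. Dlk1+ Sca1+ cells were higher than reticular cells for 6 of 9 genes (Slco2a1, Ptges, Ptger2, Ptger3, Ptgfr and Hpgd) and lower for Ptgis, with 8.43% of all genes called, 4.06% higher and 4.37% lower. Set against Dlk1+ Sca1+ cells, Dlk1- Sca1+ cells were higher for Ptges and Ptger3, 2 of 8 genes, and lower for 4 (Ptgs2, Ptgis, Ptger4 and Ptgfr), with 7.36% of all genes called, 3.23% higher and 4.13% lower. The medians over the genes counted were 0.30, 0.60 and -0.34, and those of all genes were within 0.01 of 0. In the last comparison, leaving out animal 1, animal 2, the Dlk1- Sca1+ array of animal 1, or the Dlk1+ Sca1+ array of animal 2 or of animal 3 brought the 6 calls to 3.

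**Figure D2:**
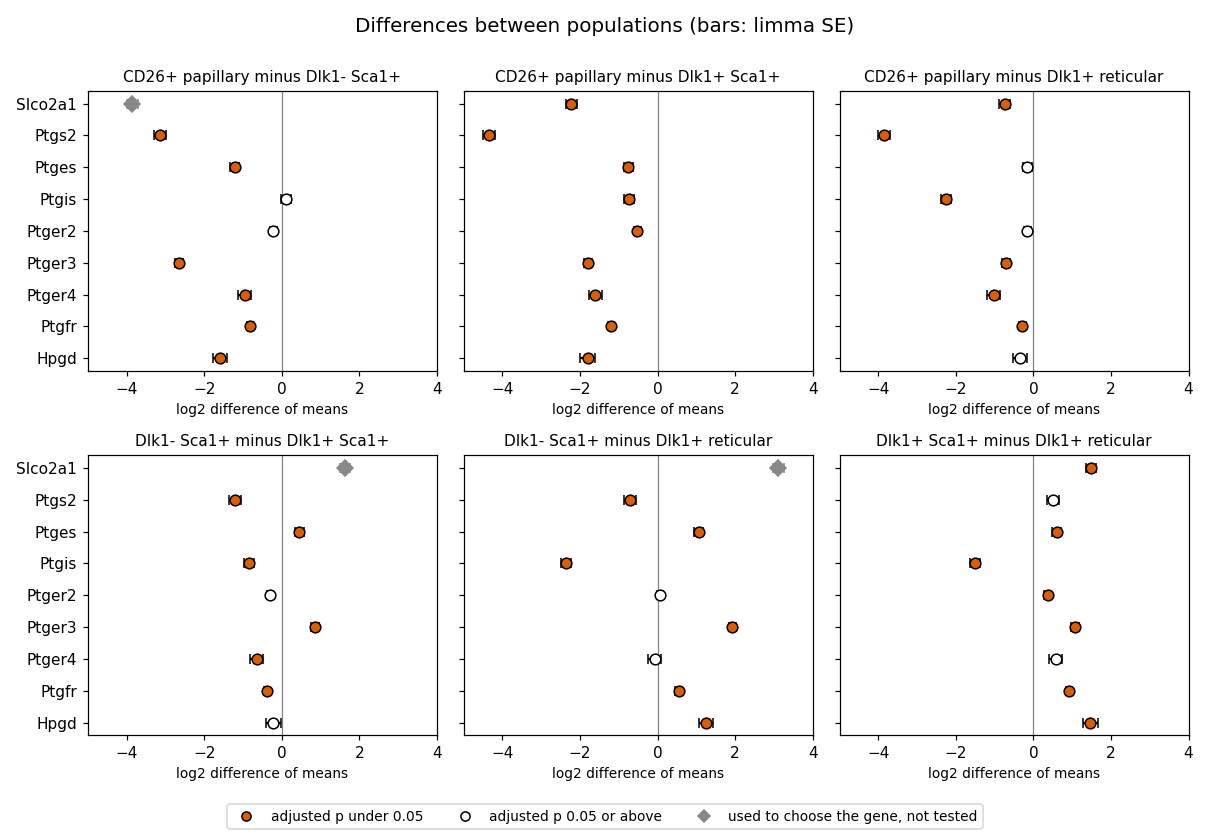
Log2 difference of means between each pair of populations, first minus second, with limma's standard error as bars. Filled points passed the test, open points did not, and grey diamonds are the Slco2a1 differences behind its choice. Every filled point lies left of 0 in the 3 papillary panels of the upper row.

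Slco2a1 imports prostaglandins from outside the cell. In papillary cells of animals 1, 2 and 3 its level was 7.19, 7.77 and 7.42. Dlk1- Sca1+ cells had 11.21, 11.48 and 11.24, and Dlk1+ Sca1+ cells had 9.63, 9.85 and 9.57. Reticular cells had 8.20, 8.33 and 8.07. The values of no 2 populations overlapped, and Dlk1- Sca1+ cells lay above all others in each animal. The gene was chosen for those high values, so they are given with no test: papillary cells lay 3.85 ± 0.14 (SE) below Dlk1- Sca1+ cells on the log2 scale, a 14.4-fold difference. The Dlk1- Sca1+ cells lay 1.63 above Dlk1+ Sca1+ cells and 3.11 above reticular cells, or 3.09-fold and 8.63-fold. The 2 other Slco2a1 probe sets gave log2 differences of -2.93 (7.64-fold) and -4.38 for papillary minus Dlk1- Sca1+ cells, and of 2.72 (6.59-fold) and 3.68 for Dlk1- Sca1+ minus reticular cells, so the size depends on the probe set.

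The other comparisons of Slco2a1 did not enter its choice. Dlk1+ Sca1+ cells exceeded reticular cells by 1.48 ± 0.14 (SE, 2.80-fold, adjusted p = 2.13e-05), with a higher value in 3 of 3 animals. Papillary cells were below Dlk1+ Sca1+ cells (log2 difference -2.22, adjusted p = 5.57e-08) and below reticular cells (-0.74, adjusted p = 0.00114). The order was thus Dlk1- Sca1+, Dlk1+ Sca1+, reticular and papillary, and each tested step was larger than the spread between animals. The step between papillary and reticular cells was called with 2 of the 3 Slco2a1 probe sets, and the remaining one gave -0.21 (adjusted p = 0.203 over all probe sets).

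Ptgs2, the inducible cyclooxygenase, showed the widest range of population means among the genes on their brightest probe sets, at 4.35. Single other probe sets of Ptger3 and Slco2a1 spanned 4.44 and 4.38, and the second one of Ptgs2 spanned 1.47. Its level was 4.40, 4.35 and 4.74 in papillary cells, well below the median of all probe sets. Dlk1- Sca1+ cells had 7.47, 7.40 and 8.06, Dlk1+ Sca1+ cells had 8.83, 8.86 and 8.85, and reticular cells had 8.39, 8.46 and 8.21. Papillary cells thus stood apart from all 9 other arrays. They were 20.4-fold below Dlk1+ Sca1+ cells (log2 difference -4.35 ± 0.16, adjusted p = 3.74e-10), 14.5-fold below reticular cells (-3.86, adjusted p = 1.64e-09) and 8.86-fold below Dlk1- Sca1+ cells (-3.15, adjusted p = 7.86e-09). A dimmer second probe set kept all 3 calls with smaller differences of -1.47, -1.36 and -0.61. As the papillary values were as dim as those of Ptger2, RMA can understate these folds, and their size is uncertain.

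Among the other populations Ptgs2 had another order than Slco2a1. Its level in Dlk1- Sca1+ cells was below that in Dlk1+ Sca1+ cells (-1.20, adjusted p = 0.000335) and below that in reticular cells (-0.71, adjusted p = 0.00599), in 3 of 3 animals each. The call against reticular cells ended without animal 1 (adjusted p = 0.103) or animal 2 (0.140), and the difference was -0.92, -1.06 and -0.15 in animals 1, 2 and 3. Dlk1+ Sca1+ and reticular cells were neighbours that did not pass the test (0.49, adjusted p = 0.0751), although their values did not overlap. That step passed with the animal as a random effect (adjusted p = 0.0342), with only the 6 arrays compared (0.0121) and without the Dlk1- Sca1+ array of animal 3 (0.0128).

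Ptges, the inducible prostaglandin E2 synthase, followed the order of Slco2a1 over a smaller range. Its level was 8.75, 8.73 and 8.89 in papillary cells and 9.97, 10.11 and 9.94 in Dlk1- Sca1+ cells. Dlk1+ Sca1+ cells had 9.55, 9.56 and 9.54, and reticular cells had 8.91, 8.68 and 9.25. The Sca1+ populations lay above the other arrays, whereas papillary and reticular values overlapped. Papillary cells were lower than Dlk1- Sca1+ cells by a log2 difference of -1.22 ± 0.12 (SE, 2.32-fold, adjusted p = 4.00e-06) and lower than Dlk1+ Sca1+ cells (-0.76, adjusted p = 0.000258), but not called against reticular cells (-0.16, adjusted p = 0.415). Dlk1- Sca1+ cells exceeded reticular cells (1.06, adjusted p = 3.78e-05).

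The smaller Ptges steps were less firm. Dlk1+ Sca1+ cells exceeded reticular cells (0.60, adjusted p = 0.00614), a call that ended without animal 1 or animal 2 (adjusted p of 0.0980 and 0.0978). Dlk1- Sca1+ cells exceeded Dlk1+ Sca1+ cells by 0.46 (adjusted p = 0.0324). This last call ended without any 1 animal and without any 1 of the 6 arrays compared (adjusted p of 0.0591 to 0.214), and when quantile normalization was repeated (0.0563). The direction was the same in 3 of 3 animals.

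Ptgis, the prostacyclin synthase, had an order of its own. Its level was 5.79, 5.80 and 5.83 in papillary cells and 5.69, 5.60 and 5.82 in Dlk1- Sca1+ cells, below the median of all probe sets and overlapping each other. Dlk1+ Sca1+ cells had 6.87, 6.53 and 6.26, and reticular cells had 8.00, 8.19 and 8.01. For Ptgis, Dlk1- Sca1+ cells were 5.15-fold below reticular cells (log2 difference -2.36 ± 0.13, adjusted p = 7.36e-08), and papillary cells were 4.79-fold below them (-2.26, adjusted p = 3.30e-08). Dlk1+ Sca1+ cells stood between, lower than reticular cells (-1.51, adjusted p = 9.55e-06), while papillary cells (-0.75, adjusted p = 0.000522) and Dlk1- Sca1+ cells (-0.85, adjusted p = 0.000950) were lower than Dlk1+ Sca1+ cells. Papillary and Dlk1- Sca1+ cells did not pass the test against each other (0.10, adjusted p = 0.664).

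Markers of mural cells, the smooth muscle cells and pericytes of vessels, which are known to make prostacyclin, moved with Ptgis in part. The mean of the 7 measured markers ran from 6.37 to 6.50 in papillary cells, 6.88 to 7.19 in Dlk1- Sca1+ cells, 7.14 to 7.95 in Dlk1+ Sca1+ cells and 7.70 to 8.57 in reticular cells. Of the 7, 4 were lower in papillary than in reticular cells and 0 higher, with 13.6% of all genes lower. In Dlk1- Sca1+ cells 3 were lower than in reticular cells and 0 higher, with 8.8% of all genes lower. Against Dlk1- Sca1+ and against Dlk1+ Sca1+ cells, papillary cells were lower for 3 and higher for 1 each. Of all genes, 13.3% and 13.9% were lower there, and 13.1% and 14.1% higher. Dlk1+ Sca1+ cells were lower for 2 and higher for 0 against reticular cells, with 4.37% of all genes lower. Dlk1- Sca1+ cells were lower for 1 and higher for 0 against Dlk1+ Sca1+ cells, with 4.13% of all genes lower. In the F-test 6 of the 7 markers passed, as did 35.7% of all genes. Rgs5, a pericyte gene picked after its values were seen, did not pass (adjusted p = 0.205). Rgs5 was at 6.14, 8.98 and 6.10 in Dlk1+ Sca1+ cells. In reticular cells it was at 7.93, 9.52 and 6.54, so it was highest in animal 2 of both. Ptgis in Dlk1+ Sca1+ cells was highest in animal 1, and in reticular cells its 3 values lay close together, with that of animal 2 the highest. RMA values have no zero, so absence of a marker cannot be read from them, and the part of such cells in the Ptgis differences was not tested.

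Among the receptors, Ptger3, which lowers cyclic AMP, was the most graded. Its level was 5.42, 5.58 and 5.26 in papillary cells and 8.08, 8.09 and 8.02 in Dlk1- Sca1+ cells. Dlk1+ Sca1+ cells had 7.13, 7.18 and 7.31, and reticular cells had 5.97, 6.12 and 6.31. No 2 populations overlapped, and all 6 comparisons passed the test. Papillary cells were 6.25-fold below Dlk1- Sca1+ cells (log2 difference -2.64 ± 0.10, adjusted p = 8.55e-10), 3.45-fold below Dlk1+ Sca1+ cells (-1.79, adjusted p = 2.49e-08) and 1.64-fold below reticular cells (-0.71, adjusted p = 0.000138). Dlk1- Sca1+ cells exceeded Dlk1+ Sca1+ cells (0.86, adjusted p = 0.000186) and reticular cells (1.93, adjusted p = 6.59e-08), and Dlk1+ Sca1+ cells exceeded reticular cells (1.07, adjusted p = 2.40e-05).

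The second Ptger3 probe set gave the same order over a wider range. Its levels were 4.18 to 4.34 in papillary cells, 8.63 to 8.78 in Dlk1- Sca1+ cells, 6.98 to 7.30 in Dlk1+ Sca1+ cells and 4.92 to 5.40 in reticular cells. On it papillary cells lay 21.7-fold below Dlk1- Sca1+ cells (log2 difference -4.44), and Dlk1- Sca1+ cells lay 12.1-fold above reticular cells (3.60). The size of the Ptger3 difference therefore depends on the probe set, and its direction did not.

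Ptgfr, the receptor of prostaglandin F2 alpha, also passed the test in all 6 comparisons, with smaller steps. Its level was 8.82, 8.84 and 8.83 in papillary cells, 9.46, 9.78 and 9.72 in Dlk1- Sca1+ cells, 9.94, 10.06 and 10.10 in Dlk1+ Sca1+ cells and 9.15, 9.11 and 9.08 in reticular cells. No 2 populations overlapped, and the Sca1+ populations were above the others in each animal. Papillary cells were 2.30-fold below Dlk1+ Sca1+ cells (-1.20 ± 0.09, adjusted p = 2.12e-07) and 1.77-fold below Dlk1- Sca1+ cells (-0.82, adjusted p = 8.14e-06). Dlk1+ Sca1+ cells exceeded reticular cells by 0.92 (adjusted p = 2.22e-05), and Dlk1- Sca1+ cells exceeded them by 0.54 (adjusted p = 0.000667).

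The 2 smallest Ptgfr steps depended on single arrays. The step of Dlk1- Sca1+ below Dlk1+ Sca1+ cells was one (-0.38, adjusted p = 0.0155), and this call ended without any 1 animal (adjusted p of 0.0622 to 0.197), without the Dlk1- Sca1+ array of animal 1 (0.0621), without the Dlk1+ Sca1+ array of animal 2 (0.0541) or animal 3 (0.0690), and with only the 6 arrays compared (0.0830). That of papillary below reticular cells was the other (-0.28, adjusted p = 0.0253), and this call ended without animal 2 or 3 (0.138 and 0.147), without any 1 papillary array (0.0611 to 0.0701), without the reticular array of animal 1 or 2 (0.0673 and 0.0592), and with arrays centred on their medians (0.0545). The 3 other Ptgfr probe sets, with levels from 4.55 to 8.94, gave the same sign in every comparison.

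Ptger4, which raises cyclic AMP, was lowest in papillary cells as well. Its level was 6.87, 6.78 and 7.26 in papillary cells, 7.90, 7.61 and 8.26 in Dlk1- Sca1+ cells, 8.59, 8.50 and 8.63 in Dlk1+ Sca1+ cells and 7.71, 8.15 and 8.13 in reticular cells. Dlk1- Sca1+ and reticular values overlapped, and the papillary values lay below all others. Papillary cells were 3.04-fold below Dlk1+ Sca1+ cells (-1.60 ± 0.17, adjusted p = 8.64e-06), 2.04-fold below reticular cells (-1.03, adjusted p = 0.000459) and 1.94-fold below Dlk1- Sca1+ cells (-0.95, adjusted p = 0.000831).

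The other populations were closer together in Ptger4. Its level in Dlk1- Sca1+ cells was below that in Dlk1+ Sca1+ cells (-0.65, adjusted p = 0.0343), a call that ended without animal 1 or 2 (0.191 and 0.212), without the Dlk1- Sca1+ array of animal 1 or 2 (0.0908 and 0.117), without any 1 Dlk1+ Sca1+ array (0.0663 to 0.107) and with only the 6 arrays compared (0.0508). Dlk1+ Sca1+ cells were not called above reticular cells (0.58, adjusted p = 0.0560), but were in each alternative other than leaving out animals or single arrays, except with the most variable probe set (0.0605). Adjusted p was 0.0163 with the animal as a block, 0.0149 with it as a random effect, and 0.00394 to 0.0496 in the others. The step was also called without the papillary array of animal 3 (0.0431), without the Dlk1- Sca1+ array of animal 2 or 3 (0.0357 and 0.0315) and on the second probe set (0.46, adjusted p = 0.0132 over all probe sets). Dlk1- Sca1+ and reticular cells did not pass the test (-0.07, adjusted p = 0.863), and the sign of this small difference turned when animal 2 (0.16), its Dlk1- Sca1+ array (0.08) or its reticular array (0.00) was left out.

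Ptger2, which also raises cyclic AMP, was dim on every array, below the median of all probe sets. Its level was 4.49, 4.54 and 4.52 in papillary cells, 4.62, 4.76 and 4.82 in Dlk1- Sca1+ cells, 4.92, 4.99 and 5.20 in Dlk1+ Sca1+ cells and 4.58, 4.67 and 4.77 in reticular cells. Dlk1+ Sca1+ values lay above all others, and Dlk1- Sca1+ and reticular values overlapped. Papillary cells were below Dlk1+ Sca1+ cells (-0.52 ± 0.09, adjusted p = 0.000544). Dlk1+ Sca1+ cells exceeded reticular cells (0.36, adjusted p = 0.0225), a call that ended without any 1 animal (0.0656 to 0.189), without the Dlk1+ Sca1+ array of animal 3 (0.108), without the reticular array of animal 1 or 2 (0.0824 and 0.0619), and with only the 6 arrays compared (0.0717).

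With the animal as a block, papillary cells also had less Ptger2 than Dlk1- Sca1+ cells (adjusted p = 0.0231, against 0.0964 without the block), and Dlk1- Sca1+ cells less than Dlk1+ Sca1+ cells (0.0112, against 0.0586). The first call was also made with repeated quantile normalization (0.0458) and the animal as a random effect (0.0294). The second was also made with both of these (0.0324 and 0.0121), with median centring (0.0473), the mean of probe sets (0.0460), trended and robust moderation (0.0372) and without the Dlk1+ Sca1+ array of animal 1 (0.0489), but not with only the 6 arrays compared (0.148) or the most variable probe set of each gene (0.0714). Papillary and reticular cells (-0.16, adjusted p = 0.243) and Dlk1- Sca1+ and reticular cells (0.06, adjusted p = 0.763) were not called for Ptger2. For such a dim probe set, RMA can understate a fold difference.

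Hpgd, the dehydrogenase that inactivates prostaglandins, was high in both Sca1+ populations. Its level was 5.66, 5.89 and 5.99 in papillary cells, 7.35, 7.34 and 7.62 in Dlk1- Sca1+ cells, 7.86, 7.19 and 7.91 in Dlk1+ Sca1+ cells and 5.97, 6.07 and 6.53 in reticular cells. The 6 Sca1+ arrays lay above the 6 others, and within each of these sets the populations overlapped. Papillary cells were 3.50-fold below Dlk1+ Sca1+ cells (-1.81 ± 0.19, adjusted p = 8.05e-06) and 3.01-fold below Dlk1- Sca1+ cells (-1.59, adjusted p = 2.82e-05). Dlk1- Sca1+ cells exceeded reticular cells 2.37-fold (1.25, adjusted p = 0.000467) and Dlk1+ Sca1+ cells exceeded them 2.76-fold (1.46, adjusted p = 0.000317). Neither papillary against reticular cells (-0.34, adjusted p = 0.231) nor Dlk1- Sca1+ against Dlk1+ Sca1+ cells (-0.22, adjusted p = 0.667) passed the test, which does not show that they are alike.

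The platform held 20 probe sets for the 9 genes, and 7 genes had more than 1. In all 66 pairs of another probe set and a comparison, the difference had the sign of the brightest probe set. Of the 60 pairs that could be tested, 50 were called the same way as the gene, 3 were not called where the gene was (Slco2a1 and Ptgfr in papillary against reticular cells, and Ptgfr in Dlk1- Sca1+ against Dlk1+ Sca1+ cells), and 2 were called where the gene was not. Those 2 were Ptger4 in Dlk1+ Sca1+ against reticular cells and Ptges in papillary against reticular cells. None was called the opposite way in limma over all probe sets.

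**Figure D3:**
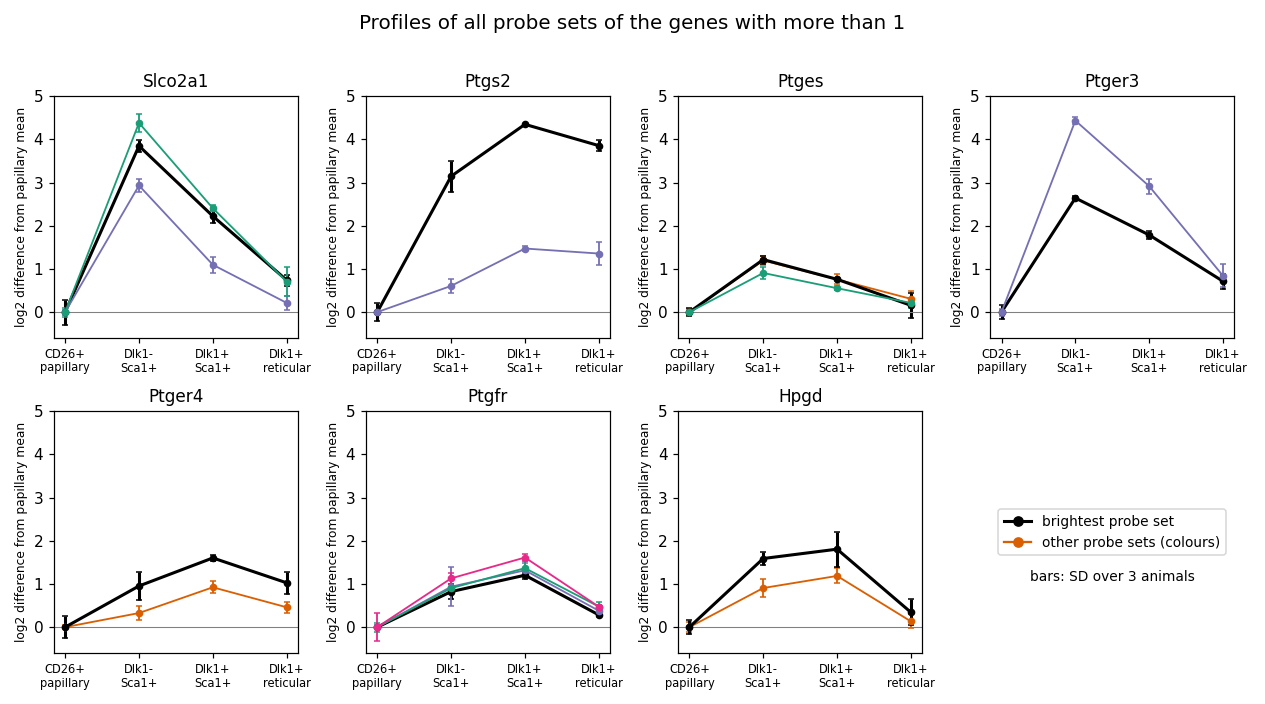
Profile of each probe set of the 7 genes with more than 1, as the log2 difference from its own papillary mean, with the SD over 3 animals as bars. The brightest probe set is black. Lines of a gene run the same way, and those of Ptger3 and Ptgs2 differ in height, reaching 4.44 and 2.64 for Ptger3 in Dlk1- Sca1+ cells.

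By their means, Slco2a1, Ptger3 and Ptges shared the order Dlk1- Sca1+, Dlk1+ Sca1+, reticular and papillary. For Ptges, papillary and reticular values overlapped, and the call between the Sca1+ populations ended without any 1 animal. Over the 12 arrays, Pearson's r was 0.984 between Slco2a1 and Ptger3, 0.951 between Slco2a1 and Ptges, and 0.959 between Ptges and Ptger3. Ptgs2 and Ptger4 had an r of 0.933, and Ptgfr and Hpgd an r of 0.924. Ptgs2 and Slco2a1 had an r of 0.523, and Ptgis ran against Slco2a1 with an r of -0.35. These values are descriptions, since the arrays fall into 4 populations and share animals. Those with Slco2a1 also include the high Dlk1- Sca1+ values for which it was chosen.

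The promoters of the 3 genes of the first order are shown with that of Ptgs2, the gene of widest range by the brightest probe set, whose order differed. Each runs 5′ to 3′ from 250 bases before to 50 bases after the RefSeq start of the gene (GRCm38.p6), at chr9:103008237-103008536 (+) for Slco2a1, chr3:157566626-157566925 (+) for Ptger3, chr2:30903248-30903547 (-) for Ptges and chr1:150099781-150100080 (+) for Ptgs2. Capitals mark matches on either strand to 4 of the motifs searched, TATAAA (the TATA box), GGGCGG (the GC box), TTNCGNAA (the core bound by C/EBP factors) and TGGGAA (the core bound by Rbpj).
Slco2a1: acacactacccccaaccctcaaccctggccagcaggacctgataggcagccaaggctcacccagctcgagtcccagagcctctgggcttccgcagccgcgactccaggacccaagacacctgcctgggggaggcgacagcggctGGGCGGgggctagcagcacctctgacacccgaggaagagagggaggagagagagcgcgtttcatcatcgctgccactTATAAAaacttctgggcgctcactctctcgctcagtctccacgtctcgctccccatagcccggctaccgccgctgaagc
Ptger3: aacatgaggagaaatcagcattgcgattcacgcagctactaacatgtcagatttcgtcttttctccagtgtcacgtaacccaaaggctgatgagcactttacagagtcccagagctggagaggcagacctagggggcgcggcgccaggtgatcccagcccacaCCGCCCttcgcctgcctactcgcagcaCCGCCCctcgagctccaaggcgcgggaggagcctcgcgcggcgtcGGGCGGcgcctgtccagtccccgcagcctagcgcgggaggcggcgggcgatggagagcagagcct
Ptges: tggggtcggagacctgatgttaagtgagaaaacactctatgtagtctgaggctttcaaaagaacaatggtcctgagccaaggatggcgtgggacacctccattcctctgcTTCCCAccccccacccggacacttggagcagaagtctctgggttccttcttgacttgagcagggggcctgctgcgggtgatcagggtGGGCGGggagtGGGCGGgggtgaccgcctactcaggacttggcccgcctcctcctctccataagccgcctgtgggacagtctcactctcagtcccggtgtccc
Ptgs2: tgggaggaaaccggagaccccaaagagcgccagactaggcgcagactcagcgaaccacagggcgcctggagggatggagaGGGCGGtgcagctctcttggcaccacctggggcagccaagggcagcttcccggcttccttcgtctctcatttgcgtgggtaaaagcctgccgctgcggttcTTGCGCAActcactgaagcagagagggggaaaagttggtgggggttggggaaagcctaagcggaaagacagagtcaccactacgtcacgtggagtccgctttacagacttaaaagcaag

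Of the motifs, GGGCGG was in all 4 windows and in 35.7% of 32851 mouse promoter windows of the same length. Slco2a1 held 1 at -106, Ptger3 held 3 at -87, -60 and -15, Ptges held 2 at -53 and -42, and Ptgs2 held 1 at -170, where positions give the first base relative to the start. TATAAA was in the Slco2a1 window alone, at -29, and in 13.6% of all windows. The C/EBP core was in the Ptgs2 window alone, as TTGCGCAA at -69, and in 2.47% of all windows. TGGGAA was in the Ptges window alone, on the reverse strand at -140, and in 25.6% of all windows.

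CANNTG (the E-box, not in capitals) was in all 4 windows and in 72.3% of all windows. CCAAT, TGACGTCA (the full cyclic AMP response element), TGANTCA (the AP-1 site) and the DR1 element (a repeat bound by PPAR factors) had no match in these 4 windows. They were in 37.4%, 1.79%, 7.81% and 0.0396% of all windows. All motifs were searched without mismatches, so variant or partial sites, also of the cyclic AMP response element, would be missed. The 3 genes with one order of means thus shared no searched motif that Ptgs2 lacked. Such matches describe letters in a window and show no binding.

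Among 1616 genes whose population means spanned at least 1 on the log2 scale, those most like Slco2a1 over the 12 arrays were Jpt1, Isg20, Mgll, Ugt1a6a and Gngt2 (r of 0.994 to 0.984). The ranking includes the Dlk1- Sca1+ values for which Slco2a1 was chosen, so it favours genes high in those cells and is a description. Mgll, a lipase for monoacylglycerols that also frees arachidonate from an endocannabinoid, had mean levels of 6.01 in papillary, 8.80 in Dlk1- Sca1+, 7.73 in Dlk1+ Sca1+ and 6.46 in reticular cells. Ugt1a6a, a glucuronosyltransferase, had 5.86, 9.94, 8.06 and 6.46 in the same order of populations.

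Most like Ptger3 were Ccl27a, Rtn4rl1, Tek, Jpt1 and Pdxk (r of 0.993 to 0.986), so Jpt1 stood on both lists. Tek, the angiopoietin receptor known from endothelium, had mean levels of 5.28 in papillary, 9.77 in Dlk1- Sca1+, 8.13 in Dlk1+ Sca1+ and 6.87 in reticular cells. The 12 blood endothelium markers averaged 5.61 to 5.70 in papillary, 5.60 to 5.93 in Dlk1- Sca1+, 5.60 to 6.28 in Dlk1+ Sca1+ and 5.80 to 6.06 in reticular arrays. The part of endothelial cells in the Tek and Ptger3 levels was not tested. Most like Ptgs2 were Agtr2, Tnfrsf1a, Nfib, Amigo2 and Srpx2 (r of 0.995 to 0.991). Agtr2, an angiotensin receptor, had mean levels of 4.78 in papillary, 9.98 in Dlk1- Sca1+, 11.46 in Dlk1+ Sca1+ and 11.20 in reticular cells.

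Of 41 further genes of the pathway in 5 lists, 33 were measured and 12 passed the F-test, against 35.7% of all genes. Papillary cells were lower for 5 and higher for 0 of the 33 against Dlk1- Sca1+ cells, lower for 6 and higher for 1 against Dlk1+ Sca1+ cells, and lower for 5 and higher for 2 against reticular cells. Of all genes, 13.3%, 13.9% and 13.6% were lower and 13.1%, 14.1% and 13.9% higher in these comparisons, so the lower share of the 33 lay near that of all genes. Their median differences were -0.05, -0.05 and -0.06. Dlk1- Sca1+ cells were higher for 3 and lower for 1 against Dlk1+ Sca1+ cells and higher for 4 and lower for 4 against reticular cells, and Dlk1+ Sca1+ cells were higher for 3 and lower for 2 against reticular cells. Of all genes, 3.23%, 9.36% and 4.06% were higher and 4.13%, 8.8% and 4.37% lower there. The medians of the 33 were 0.00, 0.03 and 0.02.

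Arachidonate release passed the F-test in 2 of 10 genes, against 35.7% of all genes. Pla2g4a, the cytosolic phospholipase that releases arachidonate, had mean levels of 5.56 in papillary, 5.74 in Dlk1- Sca1+, 6.17 in Dlk1+ Sca1+ and 5.79 in reticular cells, and papillary cells were below Dlk1+ Sca1+ cells (-0.61, adjusted p = 0.00314). The lysosomal phospholipase Pla2g15, with means of 6.80, 6.70, 7.01 and 7.03 in papillary, Dlk1- Sca1+, Dlk1+ Sca1+ and reticular cells, was lower in Dlk1- Sca1+ than in reticular cells (-0.33, adjusted p = 0.0256). Of 8 other terminal synthases, 2 passed, against the same 35.7% of all genes. Ptges2, a second prostaglandin E2 synthase, was at 7.08, 7.43, 6.96 and 6.92 in papillary, Dlk1- Sca1+, Dlk1+ Sca1+ and reticular cells, and Dlk1- Sca1+ cells exceeded Dlk1+ Sca1+ (0.47, adjusted p = 0.0355) and reticular cells (0.51, adjusted p = 0.0115). Akr1b8, an aldo-keto reductase, averaged 5.32, 5.26, 5.39 and 5.87 in these populations. It was lower in papillary (-0.55, adjusted p = 0.00350), Dlk1- Sca1+ (-0.61, adjusted p = 0.00305) and Dlk1+ Sca1+ cells (-0.47, adjusted p = 0.0278) than in reticular cells.

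Ptgds, a prostaglandin D2 synthase, did not pass the F-test. It was at 6.11, 6.15 and 6.18 in papillary cells and 7.65, 6.80 and 6.30 in Dlk1- Sca1+ cells, and between 6.30 and 6.83 on the 6 other arrays, with papillary cells lower (-0.77, adjusted p = 0.0325). Its highest value lay in the Dlk1- Sca1+ array of animal 1, where markers of melanocytes and Schwann cells averaged 7.71, against 6.61 and 6.10 in the other arrays of that population. The part of such cells was not tested.

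Of 5 other receptors and partners, 2 passed the F-test, near the 35.7% of all genes. Ptger1, a calcium-coupled receptor of prostaglandin E2, was at 7.08 in papillary, 7.71 in Dlk1- Sca1+, 7.71 in Dlk1+ Sca1+ and 7.42 in reticular cells. Papillary cells were below Dlk1- Sca1+ cells (-0.63, adjusted p = 0.000472), Dlk1+ Sca1+ cells (-0.63, adjusted p = 0.000437) and reticular cells (-0.35, adjusted p = 0.0242). Ptgfrn, a membrane protein that restrains Ptgfr, had means of 9.11, 9.50, 9.65 and 10.03 in papillary, Dlk1- Sca1+, Dlk1+ Sca1+ and reticular cells. Papillary cells were below reticular cells (-0.92, adjusted p = 9.01e-06). Its mean was lowest in papillary cells, as that of Ptgfr was, but highest in reticular cells, where Ptgfr stood below both Sca1+ populations.

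Of 5 other transporters, 2 passed the F-test, near the 35.7% of all genes, and neither had the profile of Slco2a1. Slco3a1, a carrier of the same family that moves prostaglandins, was at 11.24, 11.17 and 11.07 in papillary cells, 11.19, 11.24 and 11.05 in Dlk1- Sca1+ cells, 10.27, 10.36 and 10.35 in Dlk1+ Sca1+ cells and 9.46, 9.72 and 9.84 in reticular cells. Papillary and Dlk1- Sca1+ cells overlapped, and both exceeded reticular cells by 1.49 (adjusted p of 1.43e-07 and 4.50e-07). Slco2b1, a carrier of the same family, averaged 5.66, 6.46, 6.67 and 6.26 in papillary, Dlk1- Sca1+, Dlk1+ Sca1+ and reticular cells and was lower in papillary cells than in Dlk1- Sca1+ (-0.80, adjusted p = 0.000192), Dlk1+ Sca1+ (-1.01, adjusted p = 2.25e-05) and reticular cells (-0.60, adjusted p = 0.00176).

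Of 5 other breakdown genes, 4 passed the F-test, as did 35.7% of all genes. Cbr3, a carbonyl reductase, averaged 7.83, 8.42, 7.85 and 7.87 in papillary, Dlk1- Sca1+, Dlk1+ Sca1+ and reticular cells. It was higher in Dlk1- Sca1+ cells than in Dlk1+ Sca1+ (0.58, adjusted p = 0.00495) and reticular cells (0.56, adjusted p = 0.00273), with papillary cells also below them (-0.59, adjusted p = 0.000977). Ptgr2, a prostaglandin reductase, averaged 8.24, 8.40, 8.34 and 7.92 in these populations. It was higher in papillary (0.32, adjusted p = 0.0263), Dlk1- Sca1+ (0.48, adjusted p = 0.00402) and Dlk1+ Sca1+ cells (0.42, adjusted p = 0.0168) than in reticular cells. Amacr, a racemase of branched fatty acids, averaged 7.13, 7.22, 7.77 and 7.77. It was lower in papillary (-0.65, adjusted p = 0.00623) and in Dlk1- Sca1+ cells (-0.56, adjusted p = 0.0232) than in reticular cells, and lower in both than in Dlk1+ Sca1+ cells (-0.64 and -0.55, adjusted p of 0.00628 and 0.0478). Zadh2, a prostaglandin reductase, averaged 7.95, 8.01, 8.10 and 7.75 and was higher in Dlk1+ Sca1+ than in reticular cells (0.36, adjusted p = 0.0314).

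Genes known to be induced by cyclic AMP, the second messenger of Ptger2 and Ptger4, were described beside the receptors. Many of them also answer to other stimuli. Of 12 measured, 9 passed the F-test, as did 35.7% of all genes. Papillary cells were lower for 6 and higher for 2 against Dlk1- Sca1+ cells, lower for 7 and higher for 2 against Dlk1+ Sca1+ cells, and lower for 8 and higher for 1 against reticular cells, with medians of -0.29, -0.53 and -0.56. Of all genes, 13.3%, 13.9% and 13.6% were lower and 13.1%, 14.1% and 13.9% higher there. Dlk1- Sca1+ cells were higher for 1 and lower for 3 against Dlk1+ Sca1+ cells, with 4.13% of all genes lower, and lower for 3 and higher for 0 against reticular cells, with 8.8% of all genes lower. Against reticular cells, Dlk1+ Sca1+ cells were lower for 2 and higher for 0, and 4.37% of all genes were lower in that comparison.

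Pde4b, a phosphodiesterase that degrades cyclic AMP, was at 4.78, 5.11 and 4.96 in papillary cells, 8.37, 7.49 and 7.89 in Dlk1- Sca1+ cells, 9.33, 9.07 and 9.23 in Dlk1+ Sca1+ cells and 9.18, 9.16 and 9.18 in reticular cells. Papillary cells lay below all other arrays, by -4.26 against Dlk1+ Sca1+ cells (adjusted p = 1.03e-09). In Dlk1- Sca1+ cells it was below both Dlk1+ Sca1+ (-1.29, adjusted p = 0.000386) and reticular cells (-1.26, adjusted p = 0.000187). Its relative Pde4d averaged 7.31, 6.57, 6.34 and 6.51 in papillary, Dlk1- Sca1+, Dlk1+ Sca1+ and reticular cells and was instead higher in papillary cells than in the others (0.74, 0.97 and 0.80, adjusted p of 0.000657, 6.29e-05 and 0.000347).

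The nuclear receptor Nr4a1 averaged 10.04 in papillary cells, against 11.17, 11.19 and 11.22 in Dlk1- Sca1+, Dlk1+ Sca1+ and reticular cells, and Nr4a3 averaged 8.50, against 9.81, 9.75 and 9.81. Papillary cells were below Dlk1+ Sca1+ cells for Nr4a1 (-1.16, adjusted p = 1.87e-06) and Nr4a3 (-1.26, adjusted p = 5.64e-06). Nr4a2 was graded otherwise, with means of 9.36, 9.38, 10.11 and 10.65 in papillary, Dlk1- Sca1+, Dlk1+ Sca1+ and reticular cells. Dlk1- Sca1+ cells were below reticular cells in Nr4a2 (-1.27, adjusted p = 1.24e-06). The kinase Sik1 averaged 8.63, 9.16, 9.68 and 9.87, and papillary cells were below reticular cells (-1.24, adjusted p = 5.85e-08). Id1, a helix-loop-helix inhibitor, averaged 8.37, 8.42, 7.81 and 8.76, with Dlk1+ Sca1+ cells below reticular cells (-0.95, adjusted p = 0.000661) and Dlk1- Sca1+ cells above Dlk1+ Sca1+ cells (0.61, adjusted p = 0.0140).

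Of 11 measured genes of the lipoxygenase branch, which turns arachidonate into leukotrienes, 1 passed the F-test, against 35.7% of all genes. Alox5ap, the partner of the leukotriene-making lipoxygenase, averaged 6.04, 5.65, 5.57 and 5.60 in papillary, Dlk1- Sca1+, Dlk1+ Sca1+ and reticular cells. It was higher in papillary cells than in Dlk1- Sca1+ (0.39, adjusted p = 0.00916), Dlk1+ Sca1+ (0.47, adjusted p = 0.00254) and reticular cells (0.44, adjusted p = 0.00408). No other gene of this branch was called in any of the 6 comparisons.

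**Figure D4:**
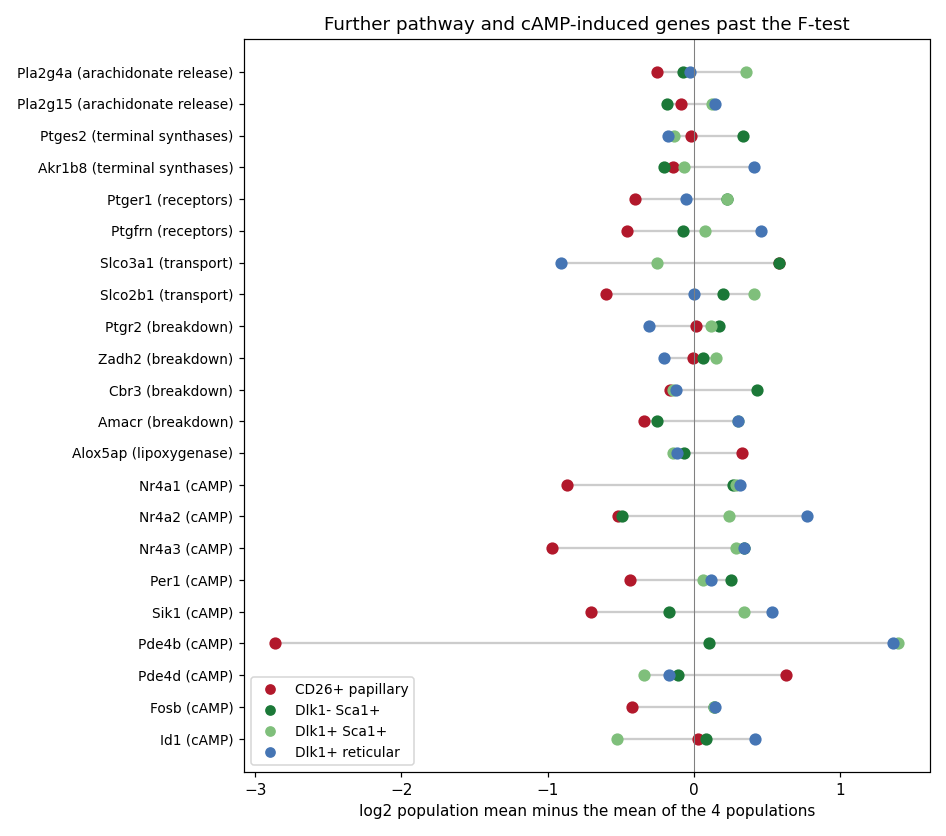
Population means of the 22 further pathway, lipoxygenase and cyclic AMP induced genes that passed the F-test, each as the log2 mean of a population minus the mean of all 4. Papillary points lie far to the left for Pde4b and to the right for Pde4d and Alox5ap, and for Slco3a1 the papillary point is hidden by that of Dlk1- Sca1+ cells at the same mean.

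Markers of other cell types were high on some arrays, although the sort was gated against EpCam, CD117 and CD31. Keratinocyte markers, 10 measured, averaged 9.37, 7.03 and 7.05 in Dlk1- Sca1+ cells of animals 1, 2 and 3. On the 9 arrays of the other populations they averaged 6.27 to 7.77. Melanocyte and mast cell markers peaked on the same Dlk1- Sca1+ array of animal 1. The 5 melanocyte and Schwann cell markers were not raised there alone. They averaged 5.72 to 5.88 on papillary, 6.10 to 7.71 on Dlk1- Sca1+, 6.13 to 6.70 on Dlk1+ Sca1+ and 5.99 to 6.28 on reticular arrays. With Dlk1- Sca1+ cells as the reference, 4 of these 5 were called down in papillary cells and 0 up. Of all genes, 13.3% were lower and 13.1% higher there. Against Dlk1+ Sca1+ and against reticular cells, 0 were called in papillary cells, with 28% and 27.5% of all genes called. Blood endothelium markers were highest in the Dlk1+ Sca1+ array of animal 2, at 6.28, and lymphatic markers in that of animal 3, at 6.29. On the keratinocyte-rich array Slco2a1 was 11.21, beside 11.48 and 11.24 on the other Dlk1- Sca1+ arrays. These are the values for which the gene was chosen, so its differences here are given with no test. Without that array, Dlk1- Sca1+ cells lay 1.68 above Dlk1+ Sca1+ cells and 3.16 above reticular cells for Slco2a1, and 0.85 (adjusted p = 0.000940) and 1.92 (adjusted p = 5.06e-07) above them for Ptger3. Without any 1 of these 3 arrays, the counts of lower genes in papillary cells were again 6 against Dlk1- Sca1+ cells, 9 against Dlk1+ Sca1+ and 6 against reticular cells. An array outside a comparison can change its calls only through the fit shared by all arrays. None of the 3 was papillary or reticular, so the differences between those populations could not change. The calls of Dlk1- Sca1+ against Dlk1+ Sca1+ cells numbered 3, against 6 with all arrays, when any 1 of the 3 was left out, and those of Ptges, Ptger4 and Ptgfr ended each time. Without the Dlk1+ Sca1+ array of animal 3 the Ptger2 call against reticular cells also ended. Skeletal muscle markers, 7 measured, averaged 5.72, 5.84, 6.23 and 6.68 in papillary, Dlk1- Sca1+, Dlk1+ Sca1+ and reticular cells. They were thus highest in reticular cells, as Ptgis was, and 3 passed the F-test, as did 35.7% of all genes. The part of other cell types in these results was not tested.

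**Figure D5:**
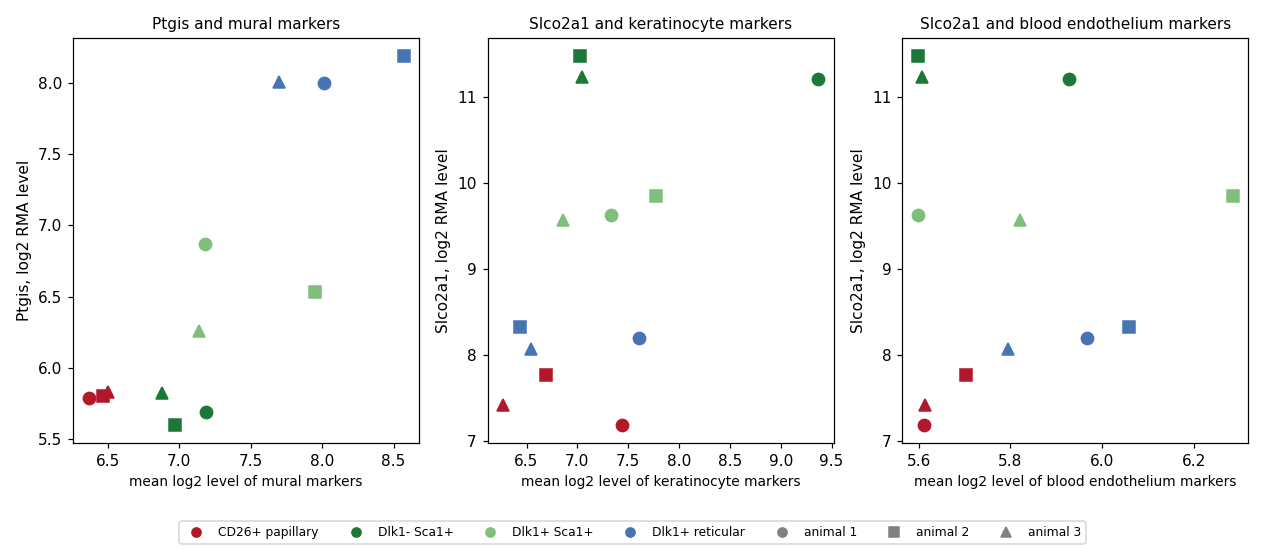
Level of Ptgis against the mean of 7 mural markers, and of Slco2a1 against the means of 10 keratinocyte and 12 blood endothelium markers, on each of the 12 arrays (log2 RMA). Reticular arrays are highest in both Ptgis and mural markers apart from 1 Dlk1+ Sca1+ array within their mural range, and the Dlk1- Sca1+ array with keratinocyte markers at 9.37 has Slco2a1 at 11.21.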

How the data were processed

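Per the submitters' processing notes, affy was used to make the RMA values, and the authors deposited them on a log2 scale; tool versions and a genome build are not given in the sources used here. The method corrects background, normalizes arrays by quantiles and summarizes probe sets, and amplification over 21 cycles can distort differences. The values ran from 3.30 to 13.27, with array medians of 6.21 to 6.34, and were used as deposited.

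Of 45141 probe sets, 104 controls were left out. The platform annotation gave 28898 probe sets 1 symbol, 551 several and 15588 none. Symbols were checked through Entrez numbers (28689 matched, 0 changed). Each gene was read from its brightest probe set by mean over the 12 arrays, which left 17097 genes. A single linear model of all 12 arrays was fitted with limma 3.58.1 (R 4.3.3, with 8 residual and 4.47 prior degrees of freedom), with Benjamini-Hochberg adjustment within each of 6 comparisons and for the F-test. Probe sets were fitted separately, all together. The code was tested on simulated data. Groups came from the labels.

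The genes and lists were chosen with earlier results of these data known. All listed genes were to be described, with up to 4 called genes per further list and comparison, and, for Slco2a1 and the 2 other genes of widest range, the 5 most correlated genes without clone names. RefSeq (GRCm38.p6) promoter windows matched 9 of the 10 genes, all but Ptgis.

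Replicate numbers name littermates in the labels, so arrays with the same number share an animal. Deviations from population means correlated at a mean r of 0.266 (0.086 to 0.432, 17 of 18 pairs above 0.1) within animals and -0.13 between them. Alternatives were the animal as a block or random effect, repeated quantile normalization, median centring, a filter on dim genes, other probe set rules, other moderation, only the 6 arrays compared, and leaving out each animal or array.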

Additional observations from a re-analysis of the deposited data

How the results depend on the processing

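Of 51 tested pairs of a gene and a comparison, 40 kept their call under 9 alternatives and 15 settings that left out an animal or array, and 0 pairs reversed a call. The uncalled Ptger4 difference of Dlk1- Sca1+ and reticular cells turned sign. Leaving out gave 3 to 6 calls of Dlk1- Sca1+ against Dlk1+ Sca1+ cells, 5 to 9 of Dlk1+ Sca1+ against reticular, 5 to 6 of Dlk1- Sca1+ against reticular, 6 of papillary against Dlk1- Sca1+, 9 against Dlk1+ Sca1+, 5 to 6 against reticular, and 7 to 8 in the F-test. The replicate block (pairing by animal) gave 7, 8, 6, 7, 9 and 6 calls in these comparisons. It added the Ptger2 and Ptger4 calls named above and changed no other call of these genes. Over all genes, calls of Dlk1- Sca1+ against Dlk1+ Sca1+ cells numbered 1258, against 1897 with the block and 2051 with the animal as a random effect, and those of Dlk1+ Sca1+ against reticular cells numbered 1441, against 2203 with the random effect. The filter on dim genes removed Ptger2. Untested Slco2a1 differences moved with the most variable probe set, to -4.38 for papillary against Dlk1- Sca1+ cells, 1.98 for Dlk1- Sca1+ against Dlk1+ Sca1+ cells and 3.68 against reticular cells, and with the mean of all probe sets to 1.81 for Dlk1- Sca1+ against Dlk1+ Sca1+ cells. The probe set with the smallest gap gave -2.93 for papillary against Dlk1- Sca1+ cells and 2.72 for Dlk1- Sca1+ against reticular cells. The calls that ended in most settings were small steps, with Ptges in Dlk1- Sca1+ against Dlk1+ Sca1+ cells first: it ended without any 1 animal, without any 1 of the 6 arrays compared and with repeated quantile normalization. With 3 arrays per population, where single arrays ended a call the cause was not tested.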
